A study of Mus musculus with 25 samples.

Results

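*Jun*, *Jund*, *Atf2*, *Atf3*, *Atf4*, *Atf5*, *Atf6*, *Atf7* and *Creb1* are 9 genes of the basic leucine zipper (bZIP) class of transcription factors. They were picked by symbol, and all 9 were among the 9931 genes with a symbol in RNA-seq of neurons sorted from the mouse sensorimotor cortex after spinal cord injury (SCI). All mice were young adults with loxP sites in both *Rest* alleles (REST flx/flx) and a tdTomato reporter that Cre switches on, of strain C57BL/6 per the labels. WT mice received AAV-Syn-GFP and REST cKO mice AAV-Syn-Cre, in which the human synapsin promoter limits GFP or Cre to neurons. WT therefore means floxed mice without Cre, and the 2 genotypes differ in the viral cargo as well as in *Rest*. Each mouse then had a complete crush of the thoracic spinal cord or a sham operation. Of the 25 libraries, 4 were from WT sham mice and 3 each from WT mice at day 1, day 3 and day 7 after SCI. REST cKO mice gave 3 sham libraries, 2 of day 1, 4 of day 3 and 3 of day 7. A figure legend of the study counts its replicates as mice, whereas the labels tie no library to an animal, so errors and p-values are given as the spread between libraries. Values are normalized expression on the log2 scale, from a kit that reads the 3′ ends of transcripts. Differences between groups are read within each gene.

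The bZIP factors bind DNA as pairs, and the partner decides which site is read. JUN and JUND, alone or with FOS proteins, form AP-1, while ATF2, ATF7 and CREB1 are mostly present before an injury and are switched on by phosphorylation, ATF2 and ATF7 by the JNK and p38 kinases. ATF3 is made after stress or axotomy, and in peripheral neurons it and JUN are classic early factors of the response to a cut axon. ATF4 and ATF5 are translated when eIF2α is phosphorylated in the integrated stress response, and ATF6 is a membrane protein of the endoplasmic reticulum that is cut free when proteins misfold there. REST is a repressor of neuronal genes. The design asks how SCI and loss of *Rest* alter these factors in cortical neurons, among them those whose axons form the corticospinal tract.

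RefSeq promoter windows of 300 bases on GRCm38.p6, from 250 bases before to 50 after the RefSeq start, were matched for 8 of the 9 genes (9 windows, since *Atf5* has 2), and *Atf6* had none. They are shown for *Jun*, *Atf3* and *Atf4*, because JUN and ATF3 are known to act on their own genes and because *Atf3* and *Atf4* were the pair with the highest correlation. Capitals mark matches, on either strand, to the letters TGACATCA and TTACCTCA (variant AP-1 and ATF sites of *Jun*), TGATGNAA (a composite C/EBP and ATF site) and TGACG (the core of the CREB site, which is part of the longer TGACGTCA and TGACGTGG).
Jun (chr4:95052173-95052472): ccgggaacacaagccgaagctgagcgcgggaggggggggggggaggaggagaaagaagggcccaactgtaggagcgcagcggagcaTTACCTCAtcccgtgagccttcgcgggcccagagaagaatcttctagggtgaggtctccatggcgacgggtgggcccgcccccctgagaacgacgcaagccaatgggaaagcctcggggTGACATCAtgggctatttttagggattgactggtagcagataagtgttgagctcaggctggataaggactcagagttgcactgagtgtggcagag
Atf3 (chr1:191183284-191183583): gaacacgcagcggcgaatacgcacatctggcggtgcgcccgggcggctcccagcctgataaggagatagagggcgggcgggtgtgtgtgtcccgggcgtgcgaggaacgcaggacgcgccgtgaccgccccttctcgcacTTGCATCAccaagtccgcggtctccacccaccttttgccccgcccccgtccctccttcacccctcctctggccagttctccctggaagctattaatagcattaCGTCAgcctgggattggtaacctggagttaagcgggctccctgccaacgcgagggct
Atf4 (chr15:80254934-80255233): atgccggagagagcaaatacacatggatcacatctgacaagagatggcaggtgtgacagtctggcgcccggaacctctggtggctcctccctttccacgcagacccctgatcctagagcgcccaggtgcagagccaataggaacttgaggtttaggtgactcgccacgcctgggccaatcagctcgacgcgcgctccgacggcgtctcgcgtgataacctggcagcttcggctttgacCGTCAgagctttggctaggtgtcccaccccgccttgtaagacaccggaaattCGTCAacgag
The RefSeq start of these windows is that of the GENCODE gene for *Jun* and *Atf4*, whereas for *Atf3* it lies 34706 bases downstream of the GENCODE gene start, and for *Jund* 1210 bases upstream. The *Jun* window held TGACATCA and TTACCTCA once each, which occurred in 3.62% and 0.889% of all 32851 windows. In the *Atf3* window the composite site was present once, on the reverse strand, against 3.97% of all windows. TGACG was present once in the *Atf3* window and at 2 places in that of *Atf4*, and 20.8% of all windows held it. The full CREB site TGACGTCA (1.79% of all windows), the AP-1 site TGACTCA (5.2%), the ATF6 site TGACGTGG (0.676%) and TTCAGCACC, the left arm of the REST site (0.371%), were in none of the 9 windows. These are matches of letters in short windows and carry no information on binding.

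*Rest* itself overlapped between the genotypes in sham libraries (WT -1.55 to -0.26, REST cKO -2.65 to -0.52) and at day 1 (WT -1.35 to 0.71, REST cKO -0.43 and -0.40), and lay lower in REST cKO without overlap at day 3 (WT 0.56 to 2.88, REST cKO -1.61 to -0.04) and day 7 (WT 0.26 to 2.74, REST cKO -1.21 to -0.33). Markers of cells other than neurons were measured as well. The mean per library of the 10 microglial genes on the marker list, all measured, was 2.56 to 3.37, and that of the 8 neuronal genes, all measured, 0.06 to 2.49. The levels of these classes are not compared with each other, since the values are not per length. Of 6 deep layer markers, 3 were measured. Fewer cells of a type and less RNA per cell cannot be told apart in such samples. The study's methods give an average depth, but read totals per library were not used here, so the depth of single libraries is unknown. As a stand-in, the share of values under -2 ran from 2.77% to 17% in 24 libraries and was 29.5% in WT day 3 replicate 5. All WT day 7 libraries were from females and all REST cKO sham and day 7 libraries from males, so sex cannot be told apart from genotype at day 7. The values had been corrected by the authors for 2 components of sequencing quality, and 9791 genes no longer correlated with either (absolute r at most 3.94e-10). *Jun* (r = -0.369 with the first component), *Atf2* (0.122 with the second), *Atf3* (-0.195 with the first) and *Atf4* (0.0953 with the first) were among 140 genes that still did. *Jund*, *Atf5*, *Atf6*, *Atf7* and *Creb1* were not. For *Atf4*, adding 1 to WT day 7 replicate 7 (1.37 to 2.37) and turning the sign of WT day 7 replicate 12 (0.27 to -0.27) removed both correlations. The search covered turned signs and steps in units of 0.5 up to 3, found no other such change to 1 or 2 libraries for *Atf4*, and found none in up to 3 libraries for the other 3 genes. The cause was not tested, and results on these 4 genes carry that limit.

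**Figure D1:**
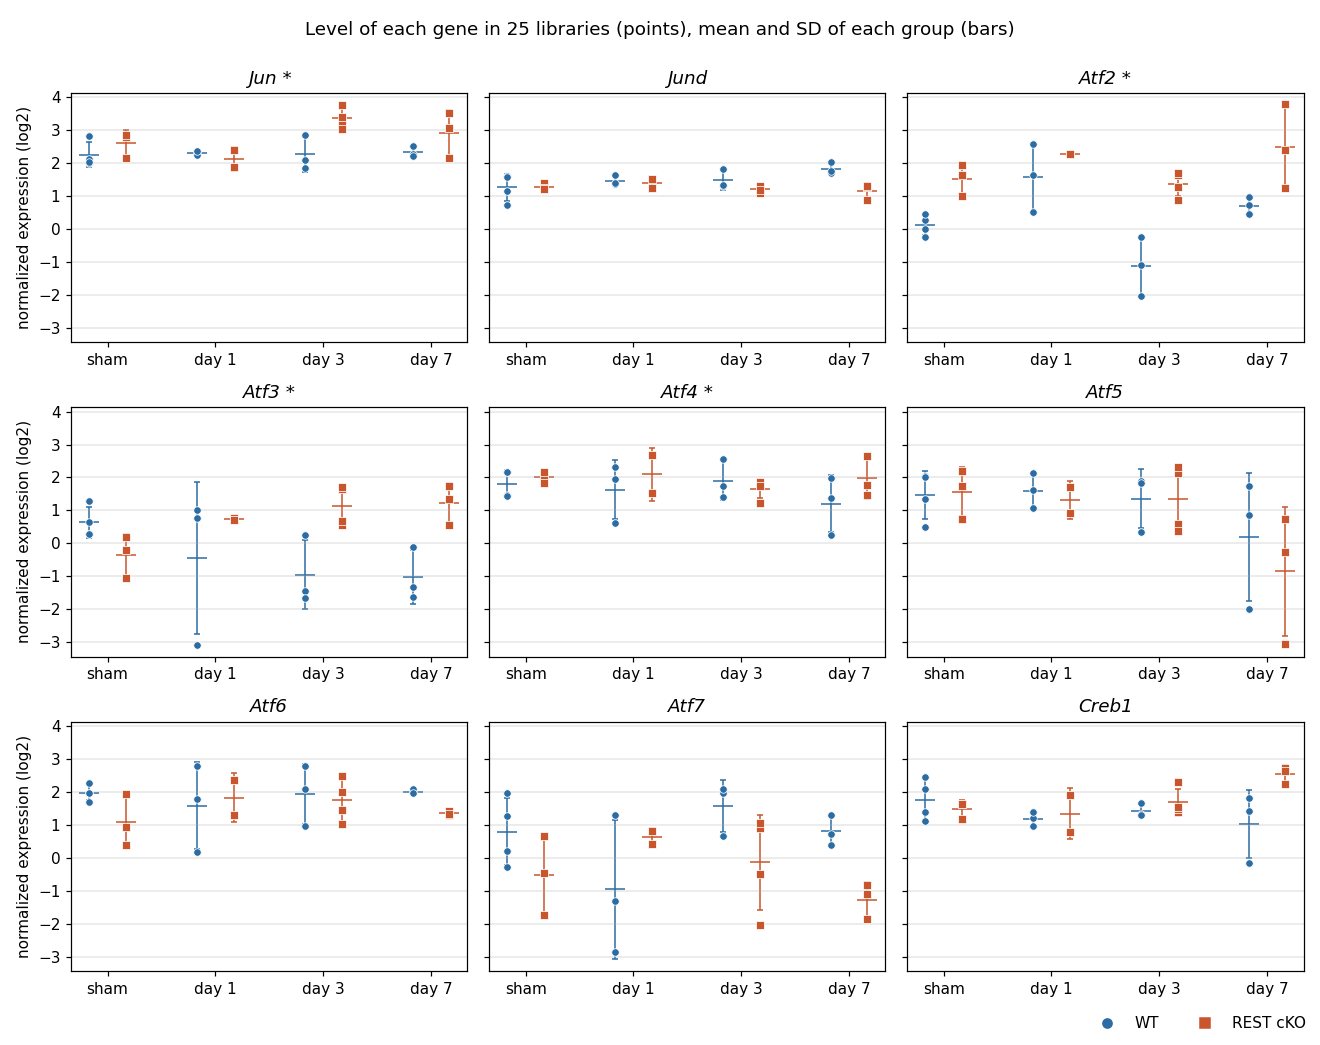
Normalized expression (log2, vertical axis) of the 9 genes in every library (points) by day (horizontal axis) for WT (blue circles) and REST cKO (orange squares), with the mean and SD of each group as bars; asterisks mark the 4 genes that correlate with a sequencing component. *Jund* stayed between 0.72 and 2.03 in all 25 libraries, whereas *Atf2*, *Atf3*, *Atf5* and *Atf7* each reached below -2 in at least 1 library.

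None of the 9 genes passed an adjusted p of 0.1 (limma, Benjamini-Hochberg over 9931 genes) in any of 12 comparisons. Of all genes, 3 (0.0302%) passed between genotypes in sham, 2 (0.0201%) at REST cKO day 3 against sham and in the test of the genotypes' injury effects at day 7, 1 (0.0101%) at WT day 3 against sham, and 0% in the other 8. The smallest adjusted p of a family gene was 0.284. What follows is therefore a description of levels and of their spread, with the share of all genes that did the same. The family split by how steady its genes were, and the steadier genes also had the higher means over libraries. *Jund* had an SD over libraries of 0.29, larger than that of 3.1% of genes, followed by *Jun* (0.54, 13.4%), *Atf4* (0.57, 14.7%), *Creb1* (0.63, 18.4%) and *Atf6* (0.67, 21.3%). *Atf3* (SD 1.22), *Atf2* (1.25), *Atf5* (1.29) and *Atf7* (1.36) varied more, above 54.2% to 66.0% of genes. The means of these more variable genes were 0.11 to 1.04, against 1.37 to 2.56 for the steadier ones. The percentages are of all genes whatever their level, and the part of level in the spread was not tested. Much of the spread of the more variable genes lay between libraries of one group, with SDs within groups of 0.70 for *Atf2*, 1.02 for *Atf3*, 1.18 for *Atf5* and 1.17 for *Atf7*.

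Markers of other cells also differed between groups, as mean levels (log2) per library. The 5 of 8 astrocyte markers measured stood at 0.72 to 1.23 in WT sham, below WT day 1 (1.51 to 3.10), day 3 (1.56 to 2.28) and day 7 (1.28 to 2.14). The 7 endothelial markers were likewise lower in WT sham (1.07 to 1.64) than at day 1 (1.70 to 2.48), day 3 (1.98 to 2.76) and day 7 (1.97 to 2.10). Between genotypes in sham, REST cKO libraries were higher in astrocyte markers (1.76 to 2.53) and in the 8 neuronal markers (1.77 to 2.49, WT 0.06 to 1.61) and lower in the 10 microglial markers (2.68 to 2.97, WT 2.99 to 3.25). At WT day 7 the 4 excitatory neuron markers were also lower than in sham (-0.44 to 0.15 against 0.30 to 0.80), and 2 of 3 oligodendrocyte precursor markers measured were higher (1.07 to 2.15 against -0.56 to 1.00). From REST cKO sham to day 3 the neuronal markers went down to 1.25 to 1.48 and the microglial ones up to 3.04 to 3.31. At REST cKO day 7, 3 deep layer markers (0.83 to 1.51) were above REST cKO sham (0.07 to 0.80) and 4 inhibitory neuron markers (-1.56 to -0.02) below it (0.04 to 1.24). None of these ranges overlap, whereas between genotypes at day 3 the ranges of every marker class did. The part of these shifts in the values of the 9 genes and of the gene lists was not tested.

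*Jun* encodes the AP-1 subunit most tied to axon injury. Its WT libraries read 2.02, 2.02, 2.13 and 2.82 in sham, 2.25, 2.34 and 2.37 at day 1, 1.84, 2.10 and 2.86 at day 3, and 2.20, 2.29 and 2.53 at day 7. WT groups thus overlapped on every day. REST cKO libraries read 2.15, 2.80 and 2.84 in sham, 1.87 and 2.39 at day 1, 3.04, 3.24, 3.39 and 3.77 at day 3, and 2.15, 3.06 and 3.53 at day 7. The 4 REST cKO day 3 libraries were above all 3 WT day 3 libraries and all 3 REST cKO sham libraries, the step at which neuronal and microglial markers also shifted. The difference from REST cKO sham was 0.76 between group means but 0.33 (SE 0.30, adjusted p = 0.999) in the model with the components, and 0.07 without REST cKO sham replicate 6. The reverse held in sham, where means of 2.60 ± 0.39 (SD, n = 3) and 2.25 ± 0.38 (SD, n = 4) overlapped and the model gave 0.86 (SE 0.32, adjusted p = 0.562), or 0.35 without the components. *Jun* is the family gene with the strongest remaining correlation with a component, and its fitted differences move with that term.

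*Jund*, the AP-1 subunit that is broadly present in resting cells (chromosome 8, 70698949 to 70700616, GRCm38), was the steadiest gene. WT sham libraries read 0.72, 1.15, 1.57 and 1.60, and WT day 7 libraries 1.71, 1.76 and 2.03, all above sham, as were the astrocyte, endothelial and oligodendrocyte precursor markers. The difference was 0.61 (SE 0.43, adjusted p = 0.828), and 0.40 without WT sham replicate 10. In REST cKO the gene read 1.21, 1.26 and 1.39 in sham and 0.87, 1.29 and 1.29 at day 7, which overlap. WT day 1 (1.35 to 1.63) and day 3 (1.29 to 1.81) and REST cKO day 1 (1.24 and 1.52) and day 3 (1.09 to 1.30) overlapped the sham libraries of their genotype.

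*Atf2* and *Atf7* encode closely related JNK and p38 targets, and their levels ran in opposite directions. *Atf2* (chromosome 2, 73816509 to 73892639) read -0.24, 0.00, 0.28 and 0.45 in WT sham. It read 0.51, 1.65 and 2.59 at WT day 1, all above sham, as were the astrocyte and endothelial markers. The fitted difference was 1.62 (SE 0.67, adjusted p = 0.669), and 1.13 without WT day 1 replicate 1. At WT day 3 the gene read -2.02, -1.10 and -0.24, where the highest library lay level with the lowest of sham. WT day 7 gave 0.44, 0.71 and 0.97. REST cKO libraries were at 0.99, 1.63 and 1.94 in sham, 2.27 and 2.28 at day 1, 0.87, 1.28, 1.64 and 1.71 at day 3, and 1.24, 2.39 and 3.79 at day 7. All REST cKO libraries were thus at or above 0.87, a level that 3 of 13 WT libraries reached.

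*Atf7* (chromosome 15, 102525946 to 102625464) read -0.27, 0.21, 1.27 and 1.96 in WT sham and -2.87, -1.31 and 1.29 at day 1, a fitted difference of -2.32 (SE 1.00, adjusted p = 0.715) with overlapping libraries. That value was -1.32 without WT day 1 replicate 1. At WT day 3 the gene read 0.66, 1.98 and 2.09, and at day 7 0.38, 0.72 and 1.31. REST cKO libraries gave -1.75, -0.47 and 0.67 in sham, 0.41 and 0.83 at day 1, -2.04, -0.49, 0.91 and 1.06 at day 3, and -1.85, -1.11 and -0.84 at day 7. The day 3 genotype difference of -2.25 (SE 1.02, adjusted p = 0.78) came with overlapping libraries.

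*Atf3*, the stress-induced member, had no WT group mean after injury above that of sham. WT sham read 0.29, 0.29, 0.66 and 1.29. Of the 3 day 1 libraries, 2 were within that range (0.78 and 1.02) and replicate 1 was at -3.10. Day 3 libraries (-1.65, -1.44 and 0.25) and day 7 libraries (-1.64, -1.31 and -0.11) were all below sham, by -1.46 (SE 1.02, adjusted p = 0.832) and -1.63 (SE 0.93, adjusted p = 0.775), on days when astrocyte and endothelial markers lay above sham. Without WT day 3 replicate 16 the first was -0.86. In REST cKO the order was turned: sham libraries at -1.04, -0.21 and 0.20 were the lowest, followed by 0.69 and 0.77 at day 1, 0.54, 0.67, 1.66 and 1.70 at day 3, and 0.54, 1.36 and 1.75 at day 7. The fitted differences from REST cKO sham were 1.38 (SE 1.01, adjusted p = 0.999) at day 3 and 1.61 (SE 1.05, adjusted p = 0.936) at day 7. Without REST cKO day 3 replicate 27 the first was 0.85. *Atf3* is also the member that tracked the share of values under -2 most closely (r = -0.56 over 25 libraries, *Atf2* -0.40, the others -0.34 to 0.20), a share that differs between groups. With a term for that share, the WT differences from sham were -1.03 at day 3 and -1.22 at day 7, and those in REST cKO 1.39 and 1.70.

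Among the factors of the integrated and endoplasmic reticulum stress responses, only *Atf6* had groups without overlap, at day 7. *Atf4* (chromosome 15, 80255184 to 80257541) had group means between 1.20 ± 0.87 (SD, n = 3) at WT day 7 and 2.10 ± 0.81 (SD, n = 2) at REST cKO day 1, and its groups overlapped in every comparison. *Atf5* (chromosome 7, 44812256 to 44816658), which is induced downstream of ATF4, had means of 1.31 to 1.60 in the 6 sham, day 1 and day 3 groups. At day 7 it spread widely in both genotypes, with libraries at -1.99, 0.86 and 1.73 in WT and -3.04, -0.26 and 0.75 in REST cKO. The difference from REST cKO sham (0.74, 1.75 and 2.20) was -2.46 (SE 1.01, adjusted p = 0.84), and -1.52 without day 7 replicate 2 or -3.84 without day 7 replicate 13. *Atf6* (chromosome 1, 170704674 to 170867771) had means from 1.08 ± 0.78 (SD, n = 3) in REST cKO sham to 2.01 ± 0.07 (SD, n = 3) at WT day 7.

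*Creb1* (chromosome 1, 64532645 to 64604548) encodes the cyclic AMP response factor that supports neuronal survival and plasticity. WT sham libraries read 1.11, 1.38, 2.08 and 2.46, day 1 libraries 0.96, 1.21 and 1.39, day 3 libraries 1.30, 1.32 and 1.67, and day 7 libraries -0.15, 1.42 and 1.80. Each WT day overlapped sham. REST cKO libraries read 1.18, 1.63 and 1.65 in sham, 0.79 and 1.90 at day 1, 1.39, 1.49, 1.54 and 2.30 at day 3, and 2.24, 2.64 and 2.74 at day 7. The day 7 libraries lay above all REST cKO sham libraries by a fitted 1.18 (SE 0.56, adjusted p = 0.867), at the step where deep layer markers were higher and inhibitory ones lower.

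Counts of genes whose groups did not overlap put these values beside all genes. Against their own sham, 1 family gene was separated at WT day 1 (*Atf2*, 7.02% of all genes in either direction), 1 at WT day 3 (*Atf3*, 6.54%), 2 at WT day 7 (*Jund* and *Atf3*, 6.87%), 2 at REST cKO day 3 (*Jun* and *Atf3*, 6.69%) and 2 at REST cKO day 7 (*Atf3* and *Creb1*, 10.7%). Between genotypes, 2 of 9 were separated in sham (*Atf2* higher and *Atf3* lower in REST cKO, 7.86%, with the astrocyte, neuronal and microglial shifts given above), 0 at day 1 (18.6%), 3 at day 3 (*Jun*, *Atf2* and *Atf3* higher, 7.59%) and 6 at day 7 (12.4%). Over the 3 injured days pooled it was 0 (0.0302%). By an unadjusted limma p under 0.05, the counts against sham were 2 at WT day 1 (*Atf2* and *Atf7*, 6.43% of all genes), 0 at WT day 3 (6.9%), WT day 7 (6.89%) and REST cKO day 3 (4.65%), and 2 at REST cKO day 7 (*Atf5* and *Creb1*, 5.67%). Between genotypes they were 1 in sham (*Jun*, 6.91%), 0 at day 1 (3.81%), 3 at day 3 (*Jun*, *Atf2* and *Atf7*, 6.37%), 4 at day 7 (*Atf2*, *Atf3*, *Atf7* and *Creb1*, 9.95%) and 4 over the injured days (*Jun*, *Atf2*, *Atf3* and *Creb1*, 6.77%). For the difference of the injury effects they were 0 at day 3 (5.15%) and 2 at day 7 (*Atf3* and *Creb1*, 6.35%). These comparisons share control groups, so their counts are not independent.

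At day 7, 6 of the 9 genes did not overlap between the genotypes, though none passed the test. *Atf2*, *Atf3* and *Creb1* were higher in every REST cKO library than in any WT library (8.03% of all genes), and *Jund*, *Atf6* and *Atf7* lower (4.38%). For *Creb1* the means were 2.54 ± 0.27 against 1.02 ± 1.03 (SD, n = 3 each), a fitted 1.56 (SE 0.52, adjusted p = 0.284). Without WT day 7 replicate 7, the library at -0.15, it was 0.91, and it was 0.91 with a term for sex. *Atf7* stood at -1.27 ± 0.52 against 0.81 ± 0.47, a difference of -2.47 (SE 1.02, adjusted p = 0.415). *Atf6* had the tightest groups, with REST cKO at 1.30, 1.34 and 1.42 and WT at 1.95, 1.99 and 2.09. Its fitted difference was -0.68 (SE 0.59, adjusted p = 0.757), which a term for sex brought to -0.08. *Jund* differed by -0.71 (SE 0.45, adjusted p = 0.632). *Atf2* differed by 1.87 (SE 0.69, adjusted p = 0.336), or 1.08 without REST cKO day 7 replicate 13, and *Atf3* by 2.40 (SE 0.98, adjusted p = 0.406). Within batch 1 (2 WT and 1 REST cKO libraries) and batch 2 (1 each), where the absence of overlap fixes the sign, the differences were 1.41 and 1.32 for *Creb1*, -1.96 and -2.58 for *Atf7*, -0.62 and -0.65 for *Atf6*, -0.45 and -1.16 for *Jund*, 1.81 and 2.82 for *Atf2*, and 1.25 and 3.40 for *Atf3*. *Atf5*, whose libraries overlapped, stood at -4.34 in batch 1 and 2.74 in batch 2. Batch 3 held no WT day 7 library.

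Other measures also differed at day 7. The share of values under -2 was 11.1% to 17% in WT and 2.77% to 10.7% in REST cKO. The mean of the 4 excitatory neuron markers was -0.44 to 0.15 in WT and 0.74 to 1.47 in REST cKO, without overlap, that of the 8 neuronal markers 0.54 to 1.59 and 1.48 to 2.01, and that of the 10 microglial markers 2.97 to 3.26 and 2.97 to 3.02. With a term for the share of values under -2, the genotype differences were 1.35 for *Creb1*, 1.94 for *Atf3*, 1.78 for *Atf2*, -2.51 for *Atf7*, -0.76 for *Jund* and -0.64 for *Atf6*. The part of the markers was not tested.

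**Figure D2:**
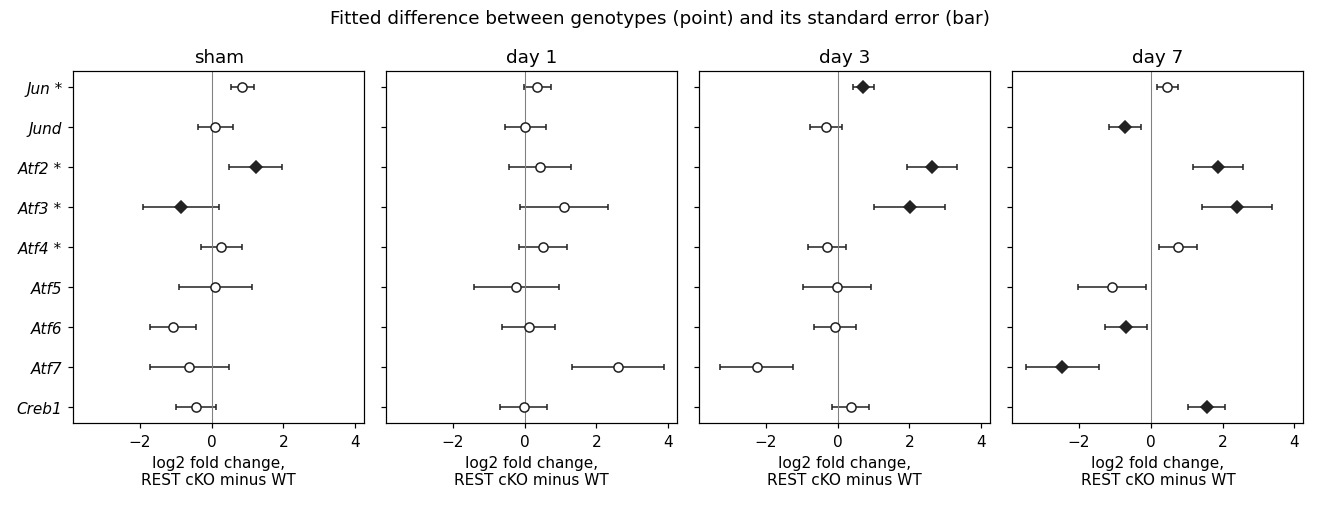
Fitted log2 fold change, REST cKO minus WT (horizontal axis), with its standard error (bars), for the 9 genes (vertical axis) in sham and at each day; filled diamonds mark genes whose libraries did not overlap between genotypes, and asterisks genes that correlate with a sequencing component. Day 7 has 6 filled diamonds, 3 on each side of 0, and day 1 has 0.

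Over the injured days together, the fitted genotype difference was 1.64 for *Atf2* (SE 0.39, adjusted p = 0.346), 1.83 for *Atf3* (SE 0.56, adjusted p = 0.595), 0.51 for *Jun* (SE 0.17, adjusted p = 0.595) and 0.63 for *Creb1* (SE 0.30, adjusted p = 0.731), all with overlapping libraries. The other 5 genes were between -0.70 and 0.33. At day 3, the fitted values were 2.63 for *Atf2* (SE 0.69, adjusted p = 0.62), 2.00 for *Atf3* (SE 0.98, adjusted p = 0.78) and 0.72 for *Jun* (SE 0.30, adjusted p = 0.756), or 1.09 without the components. Of these 3 genes none is free of the correlation with a component. Tests of whether injury acted differently in the genotypes gave 1.98 for *Creb1* at day 7 (SE 0.78, adjusted p = 0.682), 1.17 without WT day 7 replicate 7, and 3.24 for *Atf3* (SE 1.47, adjusted p = 0.782).

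The family did not move as a block over libraries. Of its 36 pairs, 19 had a positive and 17 a negative Pearson's r over the 25 libraries, with a median of 0.04. An adjusted p of 0.1 was passed by 3 pairs (two-sided permutation test, Benjamini-Hochberg over 36 pairs). *Atf2* and *Atf7* ran against each other (r = -0.66, permutation p = 0.00035, adjusted p = 0.0126, Spearman's rho = -0.61, permutation p = 0.00145). It was -0.79 within batch 1, -0.61 within batch 2 (10 libraries each) and -0.57 without the 2 libraries farthest from the median of *Atf2*. *Atf3* and *Atf4* rose and fell together (r = 0.59, permutation p = 0.00205, adjusted p = 0.0369, rho = 0.43, permutation p = 0.034), with 0.78 and 0.62 within the batches and 0.45 without 2 libraries. With the changed *Atf4* values described above, r was 0.50. *Atf3* and *Creb1* gave r = 0.53 (permutation p = 0.00699, adjusted p = 0.0839, rho = 0.47, permutation p = 0.0178), with 0.52 and 0.47 within the batches and 0.57 without 2 libraries. Batch 3, with 5 libraries, was too small for a value. WT day 1 replicate 1, with low *Atf3*, *Atf4*, *Atf6* and *Atf7* and high *Atf2*, lies at the edge of several of these plots.

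**Figure D3:**
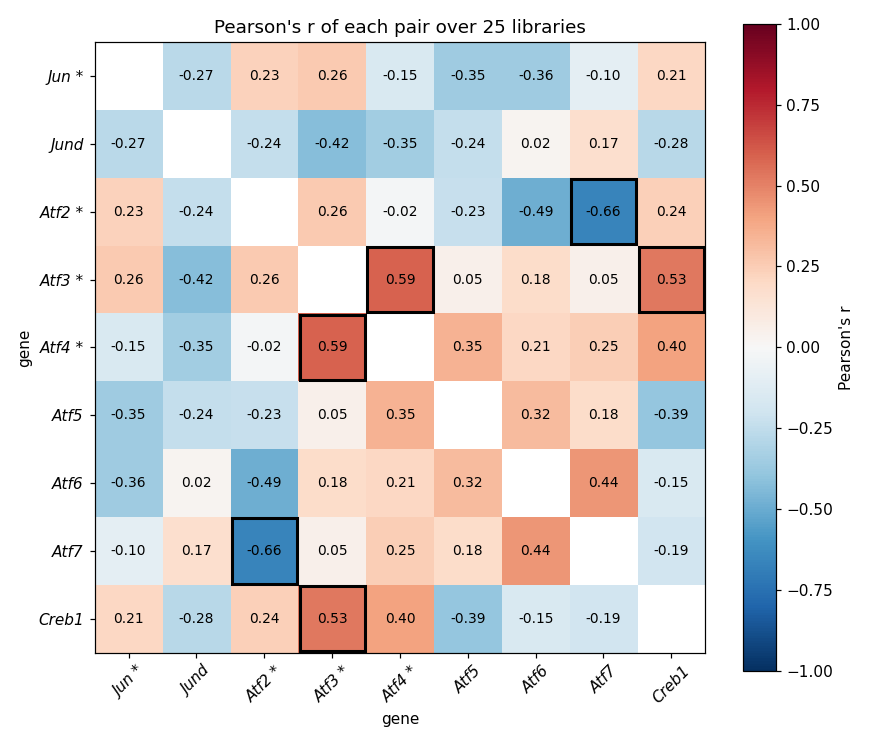
Pearson's r over 25 libraries for each pair of the 9 genes (both axes), in colour from -1 to 1; black frames mark the 3 pairs past an adjusted p of 0.1 and asterisks the genes that correlate with a sequencing component. *Atf3* is in 2 of the 3 framed pairs, and the only framed negative value is -0.66 for *Atf2* and *Atf7*.

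Differences between groups feed into these values. After group means and components were removed, 15 residual degrees of freedom remained, and r was tested with those. *Atf3* and *Atf4* stayed the closest pair (r of residuals 0.77, adjusted p = 0.0176), and *Jun* and *Atf5* also passed (-0.67, adjusted p = 0.0873). The latter pair stood at r = -0.35 over all libraries (permutation adjusted p = 0.267), -0.07 without the 2 libraries farthest from the median of *Jun*, -0.70 in batch 1 and -0.06 in batch 2. *Atf3* and *Atf7* (0.63, adjusted p = 0.114) and *Atf2* and *Atf6* (-0.57, adjusted p = 0.187) did not. *Atf2* and *Atf7* stood at -0.43 (adjusted p = 0.334) and *Atf3* and *Creb1* at 0.32 (adjusted p = 0.504). Every pair that passed, with or without groups, holds at least 1 of the 4 genes that correlate with a component. Among the 10 pairs of the other 5 genes, r ran from -0.39 to 0.44 and none passed. *Atf6* and *Atf7* were the closest of them (r = 0.44, permutation p = 0.0271, adjusted p = 0.195), with 0.77 in batch 1 and -0.06 in batch 2. The 2 AP-1 genes, *Jun* and *Jund*, gave -0.27 (permutation p = 0.197, adjusted p = 0.41).

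**Figure D4:**
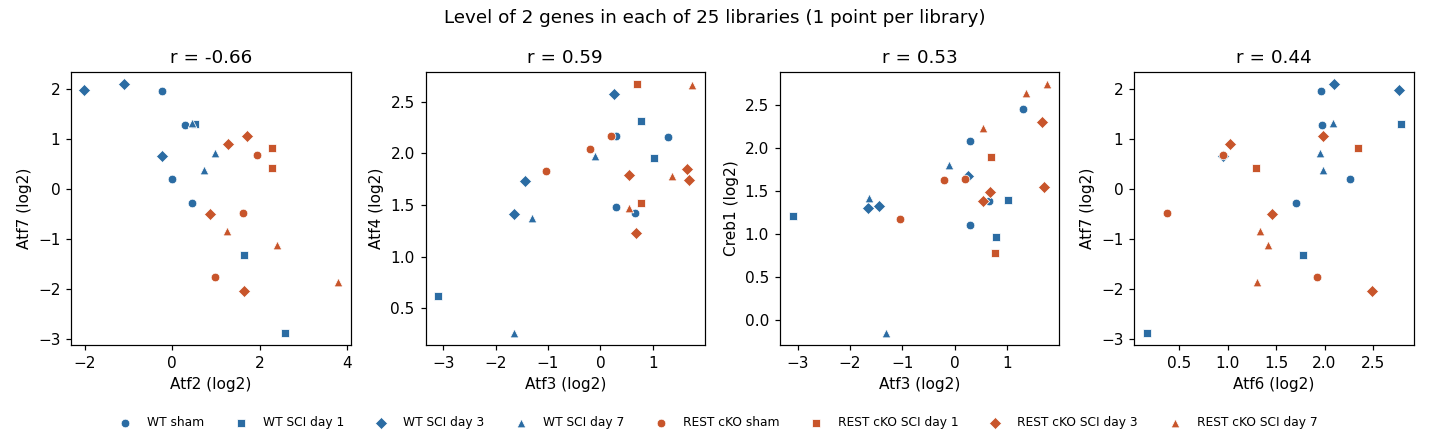
Levels (log2) of 4 pairs of genes, 1 point per library, with blue for WT, orange for REST cKO and marker shapes for sham and days. *Atf2* and *Atf7* fall along a descending line (r = -0.66), *Atf3* with *Atf4* (0.59) and with *Creb1* (0.53) along rising ones, and *Atf6* with *Atf7* is looser (0.44).

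No member was among the 3 genes most like another. With 3 taken out of 9930 other genes, this is likely for any 9 genes and says little about the family. An absolute r of at least 0.4 linked *Atf3* to 3 other members and *Atf2*, *Atf4*, *Atf6*, *Atf7* and *Creb1* to 2 each, *Jund* to 1, and *Jun* and *Atf5* to 0. The link of *Atf4* and *Creb1* lies at the limit (r = 0.40), and with the changed *Atf4* values it was 0.18, while *Atf4* and *Atf5* went from 0.35 to 0.43. Of all genes, 4.31% reached it with *Jun*, 6.59% with *Creb1*, 7.8% with *Atf3*, 8.17% with *Atf5*, 9.14% with *Atf4*, 9.85% with *Jund*, 9.91% with *Atf7*, 11.9% with *Atf6* and 13.6% with *Atf2*. By the highest r over 25 libraries, given without a test, *Jun* was most like *Tmie* (0.66), *Egr1* (0.65), an immediate early gene, and *Gjc1* (0.65). *Jund* was most like *Mmgt1* (0.75), *mt-Nd6* (0.73) and *Hist2h2be* (0.73), and *Creb1* like *Tex13b* (0.77), *Glmp* (0.67) and *Map3k4* (0.67), a kinase upstream of p38 and JNK. *Atf2* followed *Slc6a11* (0.90), a GABA transporter, with *Lrrc4c* (0.82) and *Plekha5* (0.80). *Atf3* followed *Gstp1* (0.76), *Tor2a* (0.71) and *Cxcr6* (0.71), and *Atf4* *Casc3* (0.81), *Tmem230* (0.78) and *Cope* (0.74). The nearest genes were *Tmem135* (0.85), *Pgls* (0.76) and *Hnrnpd* (0.76) for *Atf5*, *Hcar2* (0.76), *Atraid* (0.74) and *Rabggta* (0.74) for *Atf6*, and *Cggbp1* (0.81), *Rnf138* (0.76) and *Marf1* (0.74) for *Atf7*.

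The partners, regulators and targets of the family were read from 7 lists, of which 13 to 25 genes each were measured, and none of their genes passed an adjusted p of 0.1 (limma) in any comparison. Between genotypes at day 7, an unadjusted p under 0.05 was met by 3 of 13 AP-1 partners, 0 of 15 CREB and ATF genes, 3 of 18 genes of the JNK and p38 list, 5 of 25 genes of the ATF4 response, 2 of 22 of the ATF6 list, 0 of 17 CREB targets and 5 of 23 axon injury genes, against the 9.95% of all genes given above. At day 7 the median genotype difference over all genes was 0.23, REST cKO being higher. The JNK and p38 list holds the kinases that act on JUN, ATF2 and ATF7, and other genes of their pathways. Its 18 measured genes had a median of 0.64, with 14 positive (60.5% of all genes were). The 5 without overlap (12.4% of all genes had none), named here after their values were seen, were *Mapk10*, the neuronal JNK (WT -3.32, -1.16 and -0.40, REST cKO 1.10, 1.30 and 2.05, a fitted 3.26, adjusted p = 0.232), *Map2k3* (0.99), *Map3k10* (1.88) and *Mapkapk2*, a kinase below p38 (WT 0.49, 0.66 and 0.86, REST cKO 2.32, 2.33 and 2.35, a fitted 1.70, adjusted p = 0.121), all higher, and *Mapk14*, the main p38 kinase (-1.24), lower. *Mapkapk2* correlates with a component. The 25 genes of the ATF4 response had a median of 0.28, near that of all genes, and 4 of 25 were without overlap, 2 higher (8.03% of all genes) and 2 lower (4.38%). *Asns*, which makes asparagine, read -3.83, -3.20 and -2.08 in WT and 1.19, 1.36 and 1.82 in REST cKO, a fitted 4.65 (adjusted p = 0.205). *Chac1*, which breaks down glutathione, read -3.16, -2.92 and -2.26 in WT and 0.14, 1.42 and 2.21 in REST cKO, a fitted 4.23 (adjusted p = 0.238). Both are textbook ATF4 targets, and all 3 WT values of each lay under -2, the range that filled more of the WT day 7 libraries. *Eif2ak4*, the amino acid sensing kinase of the pathway (-1.99), and *Slc3a2*, an amino acid transporter subunit (-0.79), were lower.

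The 22 genes of ATF6 and endoplasmic reticulum chaperones had a median of -0.13 at day 7, with *Xbp1* (fitted -0.63, adjusted p = 0.462) and *Creld2* (-2.39, adjusted p = 0.336) lower without overlap (2 of 22, against 4.38% of all genes). The 23 axon injury genes had a median of 0.67 with 19 positive, and *Gap43* (1.85), *Basp1* (1.11), *Sox11* (2.89) and *Smad1* (3.67) were higher without overlap (4 of 23, against 8.03% of all genes, adjusted p 0.238 to 0.332), the last 2 of which correlate with a component. All 3 WT values of *Smad1* (-3.76, -3.26 and -2.11) and 1 of *Sox11* (-3.98) lay under -2, the range that filled more of the WT day 7 libraries. The axon injury list shares *Tubb3*, *Stmn2* and *Vip* with the neuron marker lists. The 13 other AP-1 and bZIP partners (-0.05, *Mafg* higher), the 15 other CREB and ATF genes (0.0004, *Creb3* higher and *Crebrf* lower) and the 17 CREB activity targets (0.03, *Homer1* higher and *Egr2* lower) had medians under that of all genes, and the 5 named are those without overlap, 1, 2 and 2 per list against 12.4% of all genes. These CREB targets, most of them immediate early genes, had their highest median elsewhere, at WT day 1 against sham (0.99 against 0.12 for all genes, 16 of 17 positive against 55.9% of all genes, 3 higher without overlap against 7.02% in either direction, and 1 at an unadjusted p under 0.05 against 6.43%). In that comparison the axon injury genes had a median of 0.20, with 7 of 23 higher and 0 lower without overlap and 3 at an unadjusted p under 0.05. *Creb1* itself was 1.19 ± 0.22 (SD, n = 3) at that time and 1.76 ± 0.62 (SD, n = 4) in sham. The CREB activity targets gave 0.66 at WT day 3 and 0.48 at day 7, and -0.09 and -0.24 at REST cKO day 3 and day 7 against their sham, where REST cKO sham stood 0.70 above WT sham. Astrocyte and endothelial markers were higher in the WT comparisons and the astrocyte and neuronal ones between the shams, as given above.

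**Figure D5:**
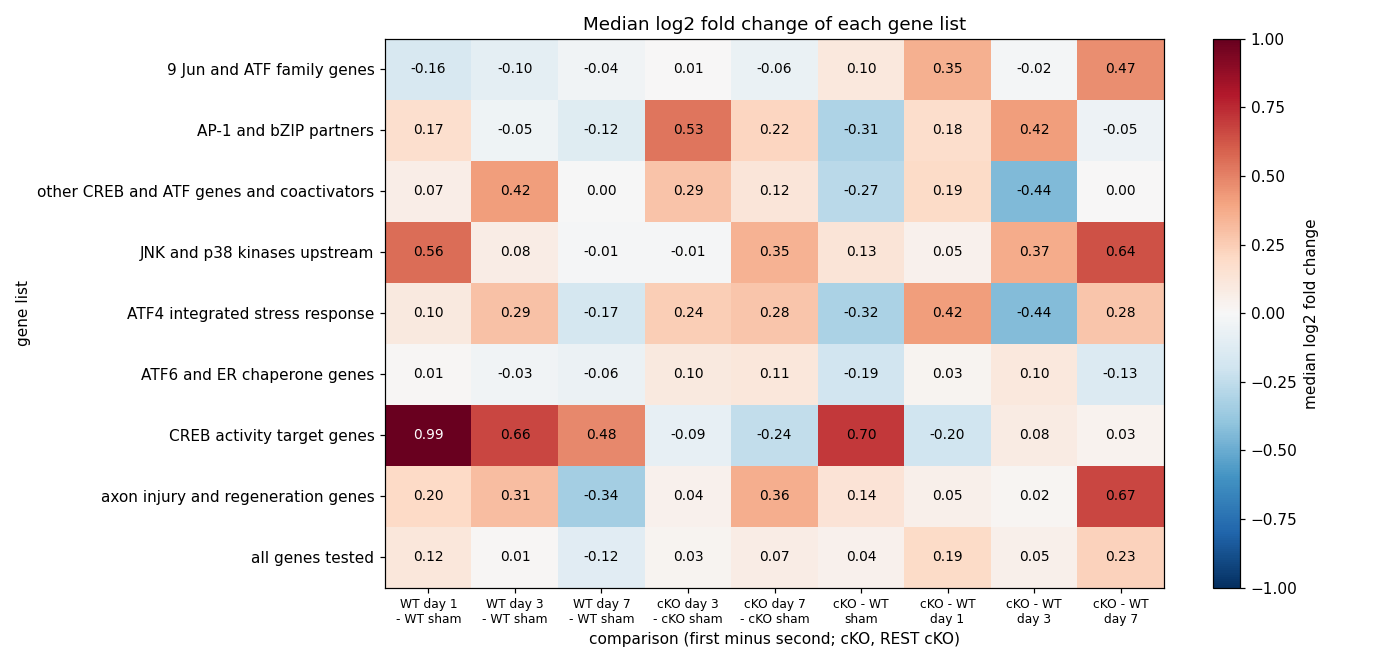
Median log2 fold change (colour and printed value) of the 9 family genes, 7 gene lists and all genes tested (vertical axis) in 9 comparisons (horizontal axis; cKO, REST cKO). The CREB activity targets have the highest median in each WT comparison with sham (0.99, 0.66 and 0.48), and the axon injury genes (0.67) and the JNK and p38 kinase list (0.64) in the genotype comparison at day 7, where all genes stand at 0.23.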

How the data were processed

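RNA-seq libraries of FACS-sorted sensorimotor cortex neurons (25 libraries, 8 groups) were analysed. Per the labels and the study's methods, the authors aligned reads to mm10 with STAR, quantified them with Salmon (tool versions not given in the sources used here), scaled the libraries with the DESeq2 method, removed batch effects, dropped genes with few counts, and regressed out 2 components of sequencing metrics, and the deposited values are log2 normalized counts. The base of the log is that of the study's legends. The same table holds log2 fold changes, p-values and adjusted p-values of the authors' own comparisons in 15 columns, which were not used. Of 9955 rows, 24 (0.241%) had no symbol and were left out.

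The linear model of limma 3.58.1 (R 4.3.3) was run on all 25 libraries, with 8 group means, the 2 components, empirical Bayes moderation with a trend, and Benjamini-Hochberg adjustment over 9931 genes (threshold 0.1). On simulated data with 200 genes changed by 3 (log2) between the day 7 groups, among 9931 genes, the fit recovered 93 with 10 false calls. Correlations over libraries used 100000 permutations, and those of residuals the null distribution of r at the residual degrees of freedom (scipy 1.17.1 and numpy 2.4.6 under Python 3.11.15). A gene is given a fold change, standard error and adjusted p only where the libraries of the groups do not overlap or the unadjusted p is under 0.05, and for *Atf3* also in the day 3 test of whether injury acted differently in the genotypes. The 9 genes, the gene lists and the rules were chosen with earlier results of these data known. Alternatives were no components, only the groups compared, terms for batch, sex or the share of values under -2, quantile normalization, library weights and leaving out each library in turn, and for correlations Spearman's rho, residuals of the fit and single batches. The changed *Atf4* values, and pairs of only the 5 genes without a remaining correlation with the components, were added after seeing the data. A count of reads per library was not used here, so no counting error is given. Positions are those of GENCODE for GRCm38.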

Additional observations from a re-analysis of the deposited data

Results flagged for a closer look

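Within groups of 4 libraries, 1 library stood far from the other 3 in 2 of 18 gene and group sets, and chance alone gives about 1 in 20. *Jun* read 2.82 in WT sham replicate 17, against 2.02 to 2.13 in the other 3. *Creb1* read 2.30 in REST cKO day 3 replicate 20, against 1.39 to 1.54 in the other 3.

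The libraries of *Atf3* lay on opposite sides of sham after injury in the 2 genotypes, every WT library lying below every WT sham library and every REST cKO library above every REST cKO sham library, at day 3 and again at day 7. The difference of the 2 injury effects was 2.84 at day 3 (limma adjusted p = 0.957) and 3.24 at day 7 (adjusted p = 0.782), so neither passed. The 4 injury effects did not pass either (limma adjusted p = 0.775 to 0.999). Both sham groups are shared by the 2 days. *Atf3* is among the genes that correlate with a sequencing component.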

How the results depend on the processing

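The number of family genes past the threshold was 0 in all 12 comparisons under every alternative run and with any 1 library left out, and no named fold change turned its direction. Over all genes, the count for REST cKO against WT at day 7 went from 0 to as many as 15 (with a term for the share of values under -2) or 21 (without WT day 7 replicate 4), that for WT day 1 against sham from 0 to 24 with library weights, that between the shams from 3 to 13 and that for REST cKO day 3 from 2 to 12, both without REST cKO sham replicate 23, none of them a family gene.

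The number of pairs that co-vary was 3 over all libraries. It was 2 in the residuals of the limma fit, 1 with Spearman's rho, with quantile normalization, with values centred within batch, after the share of values under -2 was taken out, or in batch 1 alone, and 0 in batch 2 alone or among the 5 genes free of the components, which have only 10 pairs. A single batch holds 10 libraries and so has less power. With 1 library left out it was between 2 and 5 (the latter without REST cKO day 3 replicate 15). No paired analysis was possible because the replicate numbers are sample numbers that no 2 groups share. The depth of single libraries is unknown, and at day 7, with 3 libraries per group, the simulated fit missed more than it found at a change of 3 on the log2 scale. Groups of other sizes were not simulated.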
